A study of Mus musculus with 12 samples.

Results

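Pigment epithelium and melanin genes were examined in mouse retina as a measure of retinal pigment epithelium in the dissected tissue. The 9 genes were chosen by symbol in the gene table, without use of their values, and they are 9 of the 32867 genes counted there. They are Tyr, Tyrp1 and Dct, which encode enzymes of melanin synthesis, Pmel and Mlana, which encode structural proteins of the melanosome, Slc45a2, which encodes a melanosome transporter, Mitf, a transcription factor, Best1, a chloride channel, and Ttr, a secreted carrier. Total RNA from entire retinas was depleted of ribosomal RNA and sequenced as directional libraries, with 3 samples in each of 4 groups. C3H mice with wild-type alleles of Pde6b and Prph2 (C3H) were the controls, and their 3 samples were labelled postnatal day 13, 23 and 29, 1 sample each. Pde6b rd1 mice, on a C3H background, were sampled at day 13, and Pde6b rd10 mice, on a C57Bl6/J background, at day 23. Prph rd2 mice were sampled at day 29, with a background given as C3H by the methods and as C57BL6/J by the labels. The 3 mutations cause photoreceptor degeneration, each model was taken at its peak of photoreceptor death, and mice of either sex were used. The genotype is tied to age in every model and to background in Pde6b rd10, so that these cannot be told apart in a comparison with all C3H samples.

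The retinal pigment epithelium is a single layer of pigmented cells between the photoreceptors and the choroid, and it is not part of the neural retina. It holds melanin in melanosomes, recycles the visual chromophore, takes up the tips shed from photoreceptor outer segments and secretes transthyretin. Its cells adhere to the outer retina and can be carried along or left behind when a retina is dissected. Melanin is made inside melanosomes from tyrosine by tyrosinase (Tyr), with Tyrp1 and dopachrome tautomerase (Dct) at later steps, on fibrils built from Pmel. Melanocytes of the choroid express the same melanin genes, and MITF binds short E-box sequences upstream of several of them.

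The promoters of the melanin synthesis enzymes are shown because these genes are the textbook targets of MITF and did not move together below. RefSeq promoter windows (GRCm38.p6) matched 5 of the 9 members, Tyr, Tyrp1, Dct, Mitf and Best1, in 7 windows. The 250 bases upstream of the start site were searched on both strands for CATGTG, which reads CACATG on the other strand, and for the palindrome CACGTG, core E-boxes that MITF and related factors bind, and a match is a description of the sequence, not a binding site. Each sequence is written 5′ to 3′ on the strand of the gene, and the capitals mark the matches.
Tyr, chr7:87493513-87493762, strand -: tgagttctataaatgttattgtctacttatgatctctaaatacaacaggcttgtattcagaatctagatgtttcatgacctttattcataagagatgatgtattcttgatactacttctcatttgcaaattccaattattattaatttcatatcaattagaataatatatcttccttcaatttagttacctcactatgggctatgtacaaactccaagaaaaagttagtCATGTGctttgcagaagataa
Tyrp1, chr4:80833963-80834212, strand +: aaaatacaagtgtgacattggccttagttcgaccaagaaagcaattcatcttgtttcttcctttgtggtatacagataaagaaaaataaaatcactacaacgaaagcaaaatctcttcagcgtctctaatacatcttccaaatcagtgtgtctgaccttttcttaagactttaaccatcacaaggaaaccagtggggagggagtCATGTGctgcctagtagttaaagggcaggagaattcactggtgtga
Dct, chr14:118052247-118052496, strand -: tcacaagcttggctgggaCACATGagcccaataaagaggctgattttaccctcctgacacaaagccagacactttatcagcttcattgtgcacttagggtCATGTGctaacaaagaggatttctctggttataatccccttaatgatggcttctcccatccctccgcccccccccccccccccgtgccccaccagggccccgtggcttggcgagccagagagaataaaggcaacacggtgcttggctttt
The CATGTG of Tyr lay 21 to 16 bases upstream of the start site and that of Tyrp1 46 to 41 bases upstream. These start sites are those of the RefSeq windows. The window of Tyrp1 ends at 80834212, past the gene start of 80834123 in the GENCODE annotation, so that its match lies inside the gene as annotated there. Dct held 2 matches, CATGTG 150 to 145 bases upstream and CACATG 232 to 227 bases upstream. No window of Mitf or Best1 held either motif. Of all 32851 promoter windows of this length, 12.3% held CATGTG, 6.02% held CACGTG and 17.6% held either.

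Between 17049495 and 24755890 reads per sample fell on genes, and 3 counts were taken as the smallest count that can be told from 0. Counts were tested with edgeR's quasi-likelihood test. To be called, as the differentially expressed genes (DEGs) of the study were, a gene needed an unadjusted p under 0.05 and a change of 1.5-fold or more. Adjusted p-values (Benjamini-Hochberg) cover every gene tested in a comparison, and errors of log2 fold changes are standard errors (SE). Samples are not stated in the sources used here to come from separate animals, so that p-values measure the spread between these samples. Levels, and comparisons between genes, are given in FPKM, counts scaled to gene length and library total. Values of the C3H samples are listed in the order of days 13, 23 and 29. In bulk RNA, fewer pigment epithelial cells and less RNA per cell cannot be told apart. Of the 12510 circRNAs in the deposited table, 0 were hosted by a member.

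Defining markers of the pigment epithelium were present in the control retinas at low levels. In the C3H samples, the level of Rpe65, the isomerase of the visual cycle, was between 3.03 and 3.55 FPKM, and that of Rgr, an opsin of the pigment epithelium and Mueller cells, between 3.29 and 3.93 FPKM. Best1, by contrast, was counted 1, 2 and 0 times in the C3H samples. Among the members, Ttr had the highest level in every group, with a mean of 14.8 ± 1.01 FPKM (SD, n = 3) in C3H, at the 88.6th percentile of all genes by mean FPKM. Next in C3H came Pmel with 2.63 ± 0.582 FPKM and Dct with 2.07 ± 0.120 FPKM, whose sample ranges overlapped. Mitf, with 1.29 ± 0.0436 FPKM, and Tyrp1, with 1.18 ± 0.142 FPKM, also overlapped. Tyr followed with 0.289 ± 0.0285 FPKM, Mlana with 0.170 ± 0.148, Slc45a2 with 0.0984 ± 0.0646 and Best1 with 0.0207 ± 0.0195 FPKM. Tyr and Mlana overlapped by 1 sample, and Mlana, Slc45a2 and Best1 rested on so few reads that their order is not resolved.

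Of the 9 members, 6 passed the filter on low counts in each comparison with C3H, and Mlana, Slc45a2 and Best1 did not. Among these 6, Ttr was called lower in Pde6b rd1, Tyrp1 was called higher in Pde6b rd10, and none was called in Prph rd2. The count in Pde6b rd1 was 1 of 6, against 15.0% of all genes tested in either direction with 6.03% called lower and 8.98% higher. The count in Pde6b rd10 was 1 of 6, against 23.9% in either direction with 15.9% called higher and 8.08% lower. In Prph rd2, 0 of 6 were called, against 4.57% of all genes (2.68% higher and 1.89% lower), and 2 of the 6, Dct and Mitf, had an unadjusted p under 0.05. DESeq2 also called 0 members in Prph rd2. These shares of the members are near those of all genes, and the values below describe single genes.

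**Figure D1:**
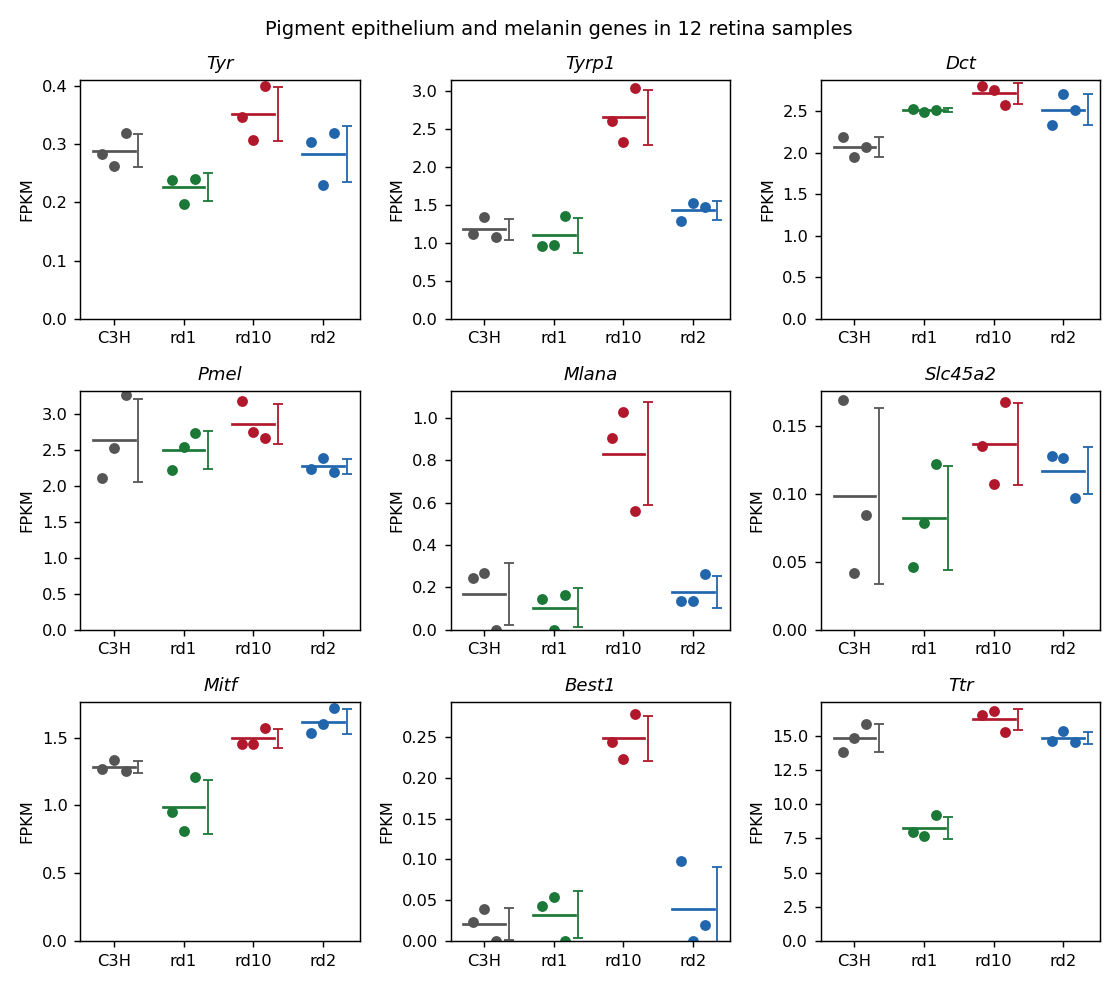
Level of each of the 9 genes in FPKM (y axis, linear, from 0) in the 12 retina samples, grouped on the x axis as C3H, Pde6b rd1 (rd1), Pde6b rd10 (rd10) and Prph rd2 (rd2). Points are samples, horizontal lines are group means and the bars beside them are SDs (n = 3), drawn from 0 upwards where they would go below it. The rd10 samples lie above all others for Tyrp1, Mlana and Best1, and the rd1 samples lie below all others for Ttr, between 7.67 and 9.19 FPKM.

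Tyrp1 (chr4:80834123-80851719, GRCm38), which stabilises tyrosinase and acts late in melanin synthesis, had the largest difference among the members tested against C3H. Its level was 1.12, 1.34 and 1.07 FPKM in the C3H samples and 2.60, 2.32 and 3.04 FPKM in Pde6b rd10, from 60 to 91 and from 123 to 182 counts. All 3 Pde6b rd10 samples lay above all 9 other samples. The log2 fold change over C3H was 1.11 (SE 0.142, edgeR adjusted p = 1.20e-06), or 2.16-fold. In Pde6b rd1 the level was 0.955, 0.975 and 1.36 FPKM, overlapping C3H, with a log2 fold change of -0.18 (SE 0.181, adjusted p = 0.443). In Prph rd2 it was 1.28, 1.52 and 1.47 FPKM, which also overlapped C3H, with a log2 fold change of 0.24 (SE 0.154, adjusted p = 0.386).

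Dct (chr14:118012790-118052244, GRCm38), the dopachrome tautomerase, lay above C3H in all 9 samples of the models but by less than the threshold of 1.5-fold. Its level was 2.19, 1.95 and 2.06 FPKM in C3H. In Pde6b rd1 it was 2.53, 2.49 and 2.52 FPKM, in Pde6b rd10 2.81, 2.75 and 2.58 FPKM, and in Prph rd2 2.33, 2.71 and 2.52 FPKM. No model overlapped C3H. Prph rd2 overlapped both other models, while Pde6b rd10 lay above Pde6b rd1. The log2 fold change over C3H was 0.34 in Pde6b rd10 (SE 0.0850, edgeR adjusted p = 0.00189), 0.21 in Pde6b rd1 (SE 0.0835, adjusted p = 0.0431) and 0.26 in Prph rd2 (SE 0.0897, adjusted p = 0.0912). These 3 comparisons share the same C3H samples.

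Tyr (chr7:87424771-87493512, GRCm38), which encodes tyrosinase, the rate-limiting enzyme of melanin synthesis, was counted 40, 45 and 45 times in C3H, 37, 24 and 33 times in Pde6b rd1, 61, 41 and 57 times in Pde6b rd10, and 51, 39 and 55 times in Prph rd2. On the FPKM scale, Pde6b rd1 was the lowest group, with 0.198 to 0.241 FPKM against 0.263 to 0.320 FPKM in C3H, and these ranges did not overlap. Pde6b rd10, with 0.308 to 0.401 FPKM, and Prph rd2, with 0.229 to 0.319 FPKM, overlapped C3H. Against C3H, the log2 fold change was -0.41 in Pde6b rd1 (SE 0.222, edgeR adjusted p = 0.140), 0.24 in Pde6b rd10 (adjusted p = 0.310) and -0.05 in Prph rd2 (adjusted p = 0.919). With these counts, the 95% interval in Pde6b rd1 ran from -0.87 to 0.05, so that a decrease of over 1.5-fold was neither called nor outside the interval.

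Pmel (chr10:128704195-128720238, GRCm38), whose product forms the fibrils of the melanosome, overlapped C3H in every model. Its level was 2.11, 2.52 and 3.26 FPKM in C3H, 2.22 to 2.74 FPKM in Pde6b rd1, 2.66 to 3.17 FPKM in Pde6b rd10 and a mean of 2.27 ± 0.103 FPKM (SD, n = 3) in Prph rd2. The 3 C3H samples spanned the widest range. The log2 fold changes over C3H were -0.15, 0.08 and -0.24 in Pde6b rd1, Pde6b rd10 and Prph rd2 (edgeR adjusted p = 0.441, 0.675 and 0.369). Exons of Pmel overlap those of Cdk2 and Dgka on the opposite strand, which had 51 to 91 and 68 to 153 counts per sample. The libraries were directional, but the strand setting of the counting is not given in the sources used here, so that the Pmel counts are uncertain.

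Mlana (chr19:29697824-29708634, GRCm38), a melanosome protein also called MART1, was near the detection floor outside Pde6b rd10. It was counted 3, 4 and 0 times in C3H, 2, 0 and 2 times in Pde6b rd1, and 2, 2 and 4 times in Prph rd2. In Pde6b rd10 the counts were 14, 12 and 7, above all other samples. Per read on genes, the summed count in Pde6b rd10 was 4.73 times that in C3H (exact 95% interval from 2.06 to 12.7). Mlana did not pass the filter on low counts, and without this filter edgeR gave a log2 fold change of 2.13 (adjusted p = 0.00266). With only the C3H sample of day 23 as control, the log2 fold change was 1.56 (adjusted p = 0.158), which was not called.

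Slc45a2 (chr15:11000721-11029233, GRCm38), a melanosome transporter that affects pH in the organelle, was counted 10, 3 and 5 times in C3H, 3, 4 and 7 times in Pde6b rd1, 10, 6 and 10 times in Pde6b rd10, and 9, 9 and 7 times in Prph rd2. All groups overlapped C3H. The ratio of Pde6b rd10 to C3H was 1.45 with an exact 95% interval from 0.765 to 2.81, and no difference was detectable at this depth. These intervals, for Slc45a2, Mlana and Best1 alike, cover counting error alone, since the reads carry no molecular identifiers.

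Mitf (chr6:97807052-98021349, GRCm38), a master regulator of melanocytes and the pigment epithelium, was lowest in Pde6b rd1 and, by mean, highest in Prph rd2, whose range overlapped that of Pde6b rd10. Its level was 1.27, 1.34 and 1.25 FPKM in C3H, 0.953, 0.814 and 1.21 FPKM in Pde6b rd1, 1.45, 1.46 and 1.57 FPKM in Pde6b rd10, and 1.53, 1.60 and 1.72 FPKM in Prph rd2. All Pde6b rd1 samples lay below all C3H samples, and all Pde6b rd10 and Prph rd2 samples above them. None of these differences reached 1.5-fold. The log2 fold change over C3H was -0.45 in Pde6b rd1 (SE 0.127, edgeR adjusted p = 0.00644), 0.16 in Pde6b rd10 (SE 0.0996, adjusted p = 0.189) and 0.30 in Prph rd2 (SE 0.0986, adjusted p = 0.0759). Replicate 3 of Pde6b rd1 was the nearest to C3H, and without it Mitf was called lower, with a log2 fold change of -0.61. Counts per gene do not separate the several transcripts of Mitf, which start at different promoters.

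Best1 (chr19:9985174-10001633, GRCm38), the bestrophin chloride channel of the pigment epithelium, was counted 1, 2 and 0 times in C3H, 2, 2 and 0 times in Pde6b rd1, and 5, 0 and 1 times in Prph rd2. In Pde6b rd10 it was counted 13, 9 and 12 times, above every other sample. The sum of 34 counts in Pde6b rd10 against 3 in C3H gave a ratio per read on genes of 11.4, with an exact 95% interval from 3.58 to 57.9. The ratio of Pde6b rd10 to Pde6b rd1 was 7.79 (2.78 to 30.2) and that to Prph rd2 6.41 (2.66 to 18.7). In the fit of all 12 samples Best1 passed the filter on low counts only through Pde6b rd10, so that no test of it is given. The size of the difference rests on 0 to 2 reads per C3H sample.

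Ttr, which encodes transthyretin, the carrier of thyroid hormone and of the retinol-binding protein, was the most abundant member. Its level was 13.8, 14.8 and 15.8 FPKM in C3H and 7.95, 7.67 and 9.19 FPKM in Pde6b rd1, from 325 to 422 and from 155 to 210 counts. All 3 Pde6b rd1 samples lay below all other samples. The log2 fold change over C3H was -0.91 (SE 0.0916, edgeR adjusted p = 1.66e-08), or 0.531 times the level in C3H. With only the C3H sample of day 13, the age of Pde6b rd1, as control, it was -0.82 (adjusted p = 0.000135), and Ttr was again called. In Pde6b rd10 the level was 16.5, 16.8 and 15.3 FPKM and in Prph rd2 14.6, 15.3 and 14.5 FPKM, both overlapping C3H. The log2 fold change over C3H was 0.07 in Pde6b rd10 (95% interval from -0.09 to 0.24, adjusted p = 0.447) and -0.03 in Prph rd2 (95% interval from -0.20 to 0.14, adjusted p = 0.861), so that changes of 1.5-fold lay outside both intervals.

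**Figure D2:**
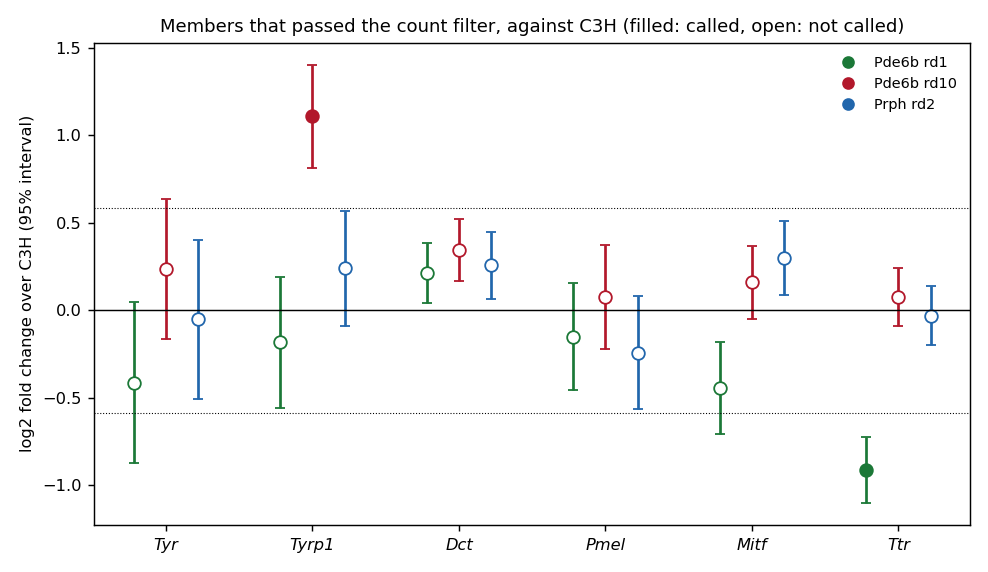
Log2 fold change over C3H (y axis, with 95% intervals from edgeR) of the 6 members that passed the filter on low counts, in Pde6b rd1, Pde6b rd10 and Prph rd2. Filled points were called, open points were not, and dotted lines mark 1.5-fold. The filled points are Ttr in Pde6b rd1 at -0.91 and Tyrp1 in Pde6b rd10 at 1.11.

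The models were compared with each other by contrasts in a fit of all 12 samples, and the members are counted without Best1. Between Pde6b rd10 and Pde6b rd1, 4 of 6 members were called higher in Pde6b rd10, against 17.6% of all genes called higher, 11.2% lower and 28.8% in either direction. These were Tyrp1 (log2 difference 1.32, edgeR adjusted p = 4.31e-07), Ttr (1.01, adjusted p = 4.72e-09), Tyr (0.68, adjusted p = 0.00819) and Mitf (0.63, adjusted p = 0.000159). The calls of Mitf and Tyr rested on single libraries. Mitf was not called without replicate 2 of Pde6b rd1, with a log2 difference of 0.51, and Tyr was not called without replicate 3 of Pde6b rd10, with 0.58. With limma on the log2(FPKM + 1) scale, the values were 0.33 for Mitf and 0.14 for Tyr, and neither was called. At levels this low the added 1 shrinks a fold change, so that this scale cannot decide on either call. For Dct the log2 difference was 0.16 (adjusted p = 0.101) and for Pmel 0.25 (adjusted p = 0.147).

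Between Pde6b rd10 and Prph rd2, 1 of 6 members was called higher in Pde6b rd10, against 13.5% of all genes called higher, 6.16% lower and 19.7% in either direction. It was Tyrp1, with a log2 difference of 0.88 (SE 0.145, adjusted p = 4.85e-05). All Pde6b rd10 samples lay above all Prph rd2 samples for Pmel too, with a log2 difference of 0.32 (SE 0.142, adjusted p = 0.0766), which was not called. Between Pde6b rd1 and Prph rd2, 2 of 6 members were called lower in Pde6b rd1, against 8.21% of all genes called lower, 8.66% higher and 16.9% in either direction. These were Ttr, with a log2 difference of -0.90 (SE 0.0873, adjusted p = 6.47e-08), and Mitf, with -0.76 (SE 0.118, adjusted p = 2.93e-05). Tyrp1 differed by -0.44 (adjusted p = 0.0389), under the threshold of 1.5-fold, and without replicate 3 of Pde6b rd1 it was called, with -0.63. The models differ in age as well as in genotype, and Pde6b rd10 differs from Pde6b rd1 in background. The background of Prph rd2 is given differently by the sources. Genotype, age and background cannot be told apart in these comparisons.

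Other genes of the pigment epithelium, from a list of 18 that holds no member, were in part lower in Pde6b rd1. Of 16 tested, 7 were called lower and 0 higher (edgeR), against 6.03% of all genes called lower and 8.98% higher. At an unadjusted p under 0.05, 2 had a positive fold change. The median log2 fold change was -0.44, against -0.01 over all genes tested. Rgr had a log2 fold change of -0.90 (SE 0.0895, adjusted p = 1.43e-08). Lrat, the acyltransferase that stores retinol, had -0.99 (SE 0.150, adjusted p = 8.82e-06). Rpe65 had -0.72 (SE 0.135, adjusted p = 0.000122), and Rdh5, a retinol dehydrogenase of the visual cycle, had -0.87 (SE 0.189, adjusted p = 0.000618). The Rpe65 level was 1.92, 2.15 and 2.09 FPKM in Pde6b rd1 against 3.05, 3.03 and 3.55 FPKM in C3H, without overlap. Rgr, at 2.16, 1.94 and 2.06 FPKM, and Rdh5, at 0.848, 0.647 and 0.647 FPKM, did not overlap C3H either. With only the C3H sample of day 13 as control, 7 of these 16 were called lower and 0 higher, a comparison added after the data were examined. Rods, which the pigment epithelium serves, moved too, with a summed FPKM of 6 rod markers of 4484 to 4597 in C3H and 2190 to 2231 in Pde6b rd1, whose part in the result was not tested.

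In Pde6b rd10 the same list split. Of the 16 that were tested in every model, 3 were called higher and 1 lower, against 15.9% of all genes called higher and 8.08% lower. These shares are near those of all genes. The median log2 fold change was -0.06, against -0.0025 over all genes tested. Krt18, a keratin of simple epithelia, had the largest value, a log2 fold change of 3.46 (SE 0.0739, adjusted p = 4.54e-19), with 4.28 to 4.64 FPKM in C3H and 47.7 to 52.8 FPKM in Pde6b rd10. Folr1, a folate receptor, had 2.06 (adjusted p = 2.72e-10). Trf, which encodes transferrin, passed the filter only with Pde6b rd10 and is not counted, with 9, 4 and 5 counts in C3H and 36, 26 and 28 in Pde6b rd10. Slc16a8, the lactate transporter MCT3 of the basal membrane, had -1.05 (adjusted p = 6.20e-05), and Kcnj13, a potassium channel that was the remaining call, had 1.26 (adjusted p = 0.000124). The genes of the visual cycle did not follow the calls. Rpe65 had a log2 fold change of -0.47 (adjusted p = 0.0119), Rgr had -0.52 and Rdh5 -0.02 (adjusted p = 0.917), each under the threshold of 1.5-fold. Some genes of the list are also expressed elsewhere in the retina, such as Rlbp1 and Rgr in Mueller cells.

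In Prph rd2, 0 of these 16 genes of this list were called by edgeR, against 4.57% of all genes. At an unadjusted p under 0.05 but under 1.5-fold, 4 had a positive and 1 a negative fold change, and the median log2 fold change was 0.05. Rpe65 had a log2 fold change of -0.36 (unadjusted p = 0.0198, adjusted p = 0.120), Rgr -0.12 (adjusted p = 0.451) and Rdh5 -0.22 (adjusted p = 0.486).

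**Figure D3:**
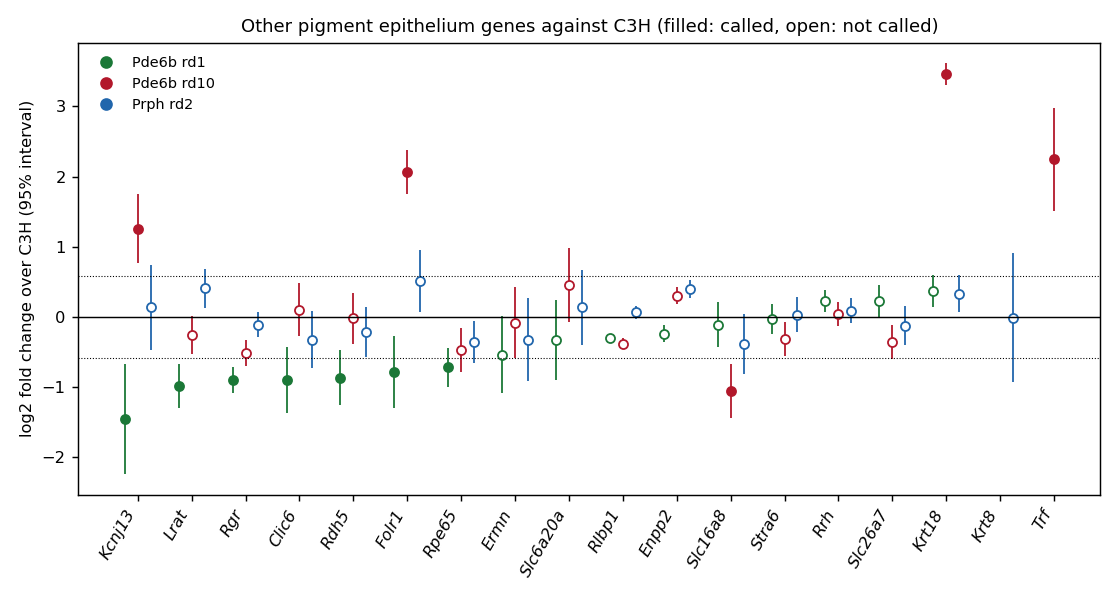
Log2 fold change over C3H (y axis, with 95% intervals from edgeR) of the 18 other pigment epithelium genes, ordered by their value in Pde6b rd1, with Krt8 and Trf, which were not tested there, at the right. Filled points were called and dotted lines mark 1.5-fold. In Pde6b rd1 the 7 filled points all lie below 0, in Pde6b rd10 4 lie above 0, Trf among them, and 1 below, and in Prph rd2 no point is filled.

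The melanosome and melanin pathway beyond the members was described by 24 genes, of which 22 were tested in every model. In Pde6b rd10, 7 were called higher and 1 lower, against 15.9% of all genes called higher and 8.08% lower. The median log2 fold change was 0.20. Gpnmb, a melanosome glycoprotein that phagocytes also make, was counted 14, 37 and 34 times in C3H and 1133, 828 and 900 times in Pde6b rd10, a log2 fold change of 5.02 (SE 0.129, adjusted p = 9.16e-18). Cd63, a protein of melanosomes and lysosomes, had 1.47 (adjusted p = 5.64e-15), Slc7a11, the cystine transporter, 2.42 (adjusted p = 2.27e-14), and Rab32, a GTPase of melanosome transport, 2.82 (adjusted p = 4.85e-09). Gpnmb, Cd63, Slc7a11 and Rab32 are also expressed by macrophages and other cells. The summed FPKM of 6 markers of microglia and macrophages was 17.9 to 19.1 in C3H and 61.1 to 68.1 in Pde6b rd10, with all 5 that were tested in every model called higher, and its part in these results was not tested. In Pde6b rd1, 0 were called higher by edgeR and 1 of 22 lower, against 8.98% of all genes called higher and 6.03% lower. At an unadjusted p under 0.05, 5 were positive. The call was Oca2, a melanosome transporter, with a log2 fold change of -0.85 (adjusted p = 0.0507). It had 18 to 31 counts in C3H and 7 to 17 in Pde6b rd1. In Prph rd2, Gpnmb alone of 22 was called, higher by a log2 fold change of 1.04 (adjusted p = 0.0232), against 4.57% of all genes called. With only the C3H sample of the same day as control, Gpnmb was called higher in Pde6b rd1 too, at 1.21, against 0.30 with all C3H samples, since its lowest C3H count was that of day 13.

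Genes for the uptake of outer segments, 9 in number, were all tested. Over all genes, 15.0% were called in Pde6b rd1, 23.9% in Pde6b rd10 (15.9% higher, 8.08% lower) and 4.57% in Prph rd2. In Pde6b rd10, 5 of the 9 were called higher and 0 lower, also at any fold change, with a median log2 fold change of 0.73. The log2 fold changes were 2.26 for Pros1, a bridging ligand of the TAM receptors (adjusted p = 7.86e-15), 1.37 for the receptor Axl (adjusted p = 4.84e-14), 0.74 for the integrin Itgav (adjusted p = 3.83e-12) and 1.05 for the receptor Tyro3 (adjusted p = 1.36e-09). The marker sums of microglia and macrophages given above moved with these genes too. Of the 9, 4 were not called in Pde6b rd10, but 7 had a positive fold change over all C3H samples at an unadjusted p under 0.05 (edgeR). With only the C3H sample of day 23 as control, the log2 fold change was 0.28 for Mertk, 0.23 for Mfge8, 0.004 for Gas6 and -0.03 for Itgb5. Each of these 4 was under the threshold of 1.5-fold. By the same control Pros1 had 2.14, Axl 1.36, Tyro3 1.07 and Itgav 0.72. In Pde6b rd1, Gas6, the other bridging ligand, was called lower with a log2 fold change of -0.64 (adjusted p = 2.07e-11), and in Prph rd2 0 were called by edgeR, with 2 positive and 1 negative at an unadjusted p under 0.05. Of the 8 partners and regulators of MITF tested, Tfeb, a related factor that controls lysosomal genes, was called higher in Pde6b rd10, with a log2 fold change of 0.61 (adjusted p = 9.40e-05), and 0 were called by edgeR in the other models, with 1 positive and 1 negative in Pde6b rd1 and 1 positive and 3 negative in Prph rd2 at an unadjusted p under 0.05. Tfec, another related factor, did not pass the filter. It was counted 0 times in all C3H samples and 11, 11 and 9 times in Pde6b rd10, and it is named here because of these values.

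**Figure D4:**
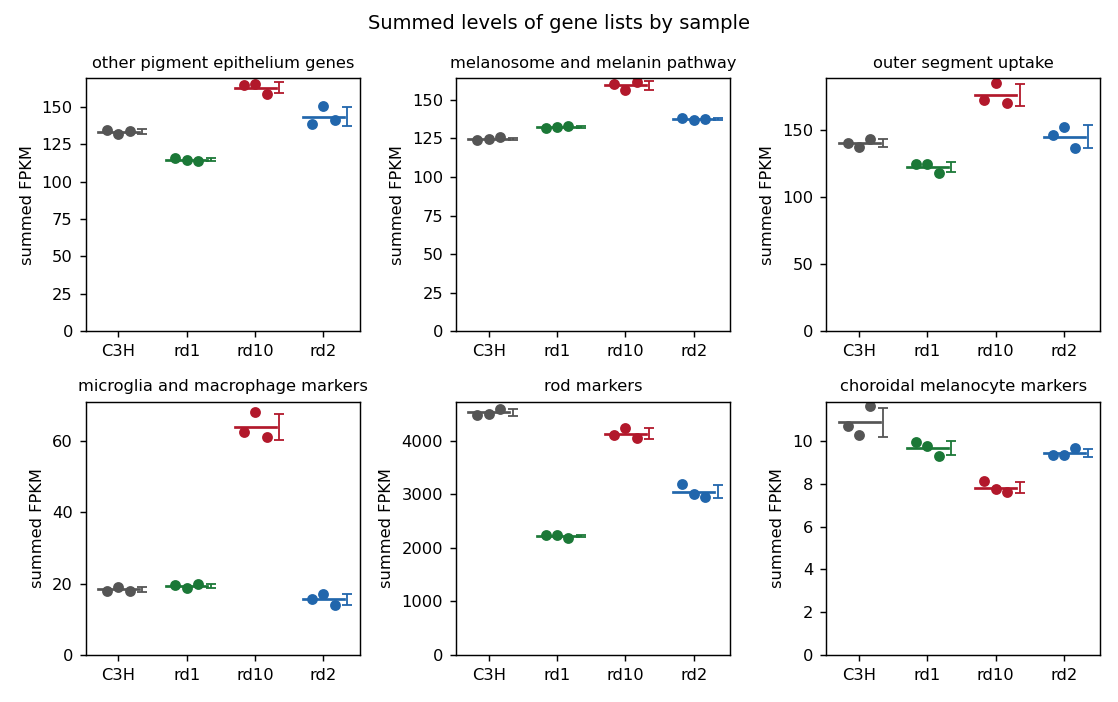
Summed FPKM of 6 gene lists (y axes, linear, from 0) in the 12 retina samples, grouped as C3H, Pde6b rd1 (rd1), Pde6b rd10 (rd10) and Prph rd2 (rd2). Points are samples, lines are group means and bars are SDs (n = 3). The microglia and macrophage sum lies between 61.1 and 68.1 in rd10 and between 13.9 and 19.8 in the other groups, and the rod sum is lowest in rd1. The sum of other pigment epithelium genes is 158 to 165 in rd10 and 131 to 134 in C3H. Krt18 alone has 47.7 to 52.8 of it in rd10 and 4.28 to 4.64 in C3H, so that its height in rd10 is not a rise of the list as a whole, whose median log2 fold change was -0.06.

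Markers of other tissues that a dissection can carry along were examined beside the members. Of 6 markers of choroidal melanocytes, Sox10 was counted 0 to 6 times and Pax3 0 to 2 times per sample. The summed FPKM of this list was 10.3 to 11.6 in C3H, 9.30 to 9.97 in Pde6b rd1, 7.63 to 8.13 in Pde6b rd10 and 9.34 to 9.69 in Prph rd2. This sum is mostly Mc1r, Ednrb and Kit. In the C3H sample of day 13 they had 4.83, 2.96 and 2.80 of 10.7 FPKM, and Sox10 and Pax3 had 0.050 and 0.0081. The part of melanocytes in the sum was not tested. In Pde6b rd10, where Tyrp1, Mlana and Best1 were highest, Ednrb was called higher and Mc1r and Kit lower, at 0.63, -2.30 and -1.05 on the log2 scale, and Erbb3, which passed the filter only with Pde6b rd10, had 4 to 9 counts in C3H and 21 to 33 in Pde6b rd10. Ednrb is also expressed in Mueller cells and Kit in amacrine cells. Mc1r was also called lower in Pde6b rd1, at -0.98, and Kit in Prph rd2, at -0.64. The fibroblast list of choroid and sclera summed to 6.66 to 7.22 FPKM in C3H and 7.53 to 8.16 FPKM in Pde6b rd10, with Col3a1 called higher there (0.93). In Pde6b rd1 it summed to 7.83 to 8.41 FPKM, with Col1a1 called lower (-1.04). The endothelial sum was 57.3 to 58.0 FPKM in C3H and 41.7 to 43.2 FPKM in Pde6b rd10, with Kdr called lower there (-0.60). The lens list stayed between 1.49 and 2.77 FPKM in all samples, and in Pde6b rd10 Bfsp2 and Bfsp1 were called lower (-0.93 and -1.12). There, 1 more lens marker was called higher, but it passed the filter only with Pde6b rd10 and is not counted. The list of inner retina and Mueller markers summed to 704 to 730 FPKM in C3H and 425 to 434 FPKM in Pde6b rd1, with Glul called lower there (-1.54). The part of these cells in the members' results was not tested.

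The members were not carried by 1 shared profile. Across the 12 samples, Pearson's r of log2(FPKM + 1) between pairs of members ran from 0.87 for Tyrp1 and Best1 and 0.86 for Tyrp1 and Mlana to -0.04 for Dct and Ttr. Mitf and Ttr had 0.84. After the group means were taken off, Tyrp1 and Best1 had -0.20, Tyrp1 and Mlana -0.04 and Mitf and Ttr 0.50. The strongest pairs were then Tyrp1 and Mitf at 0.78, Pmel and Ttr at 0.73 and Dct and Best1 at -0.73. Before, these pairs had 0.60, 0.27 and 0.50. These are descriptions over 12 samples that share 4 groups, and counts of a few reads limit them for Best1, Mlana and Slc45a2. The mean of the standardised levels of Tyrp1, Dct, Pmel, Best1 and Ttr served as a profile, in which Best1 rests on few reads. Of 16915 genes with a mean of at least 0.5 FPKM, the 5 with the highest r to this profile were Mthfd1l (0.986), Myd88 (0.984), Cdc42se1 (0.982), Ctsa (0.979) and D2hgdh (0.976). All had their highest group mean in Pde6b rd10. This follows from the profile itself, which was 1.00 to 1.34 in the Pde6b rd10 samples and at most 0.037 in the others. After the group means were taken off, the 5 genes were Hapln3 (0.970), Vps33a (0.954), Msmo1 (0.950), Gle1 (0.934) and Fgf18 (0.909). With Spearman's rank correlation, 2 of the 5 genes remained in each case.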

How the data were processed

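Gene-level counts and FPKM of 12 retina samples were analysed, in the groups that the labels give. The authors aligned cleaned reads to GRCm38 and counted reads per gene with HTSeq v0.11.2, and the deposited gene counts are not normalized. From the counts, the authors derived the deposited FPKM by gene length and library total. The authors made the deposited circRNA TPM values from junction counts, and both were used only to look for circRNAs hosted by a member.

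Depth ranged from 17049495 to 24755890 reads on genes, which sets the precision of low counts. The members and lists were chosen with earlier results of these data known. Models were tested against C3H on 6 samples and against each other in a fit of 12 samples, with edgeR 4.0.16 in R 4.3.3 (TMM, filterByExpr, quasi-likelihood test), fitted on all genes and tested on simulated data. The alternatives comprised the Wald test of DESeq2 1.42.0, limma 3.58.1 on log-scaled FPKM with 1 or 0.1 added for genes with a mean of at least 0.1 FPKM, other size factors, no filter, the adjusted p as threshold, a replicate block, all 12 samples in 1 fit or only both models, each replicate left out, and the C3H sample of the same day alone. Named were the 9 members, the called genes of each list (at most 4 per comparison by smallest p), Rpe65, Rgr, Rdh5 and Gpnmb, and the 5 genes most like the members, beside genes named to complete a small count. Counts of called members and list genes cover genes that passed the filter in every comparison with C3H, a choice made after the data were examined. Ratios of summed counts have exact conditional binomial intervals (95%, scipy 1.17.1). Annotation was GENCODE vM21 and promoters were from RefSeq, GRCm38.p6. No sequence or position is given for Ttr.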

Additional observations from a re-analysis of the deposited data

How the results depend on the processing

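Of 679 fold changes of members under alternatives, 658 kept their direction and their side of the thresholds, 12 changed direction, 7 lost and 2 gained a call. Tyrp1 in Pde6b rd10 and Ttr in Pde6b rd1 were called against C3H in every alternative run. The members called in Pde6b rd10 against C3H were 1 in the reported comparison, 3 with DESeq2, with no filter on low counts and with limma on log2(FPKM + 0.1), and 2 with limma on log2(FPKM + 1), with all 12 samples in 1 fit and with the C3H sample of the same day, with Best1 or Mlana then among the genes tested. It was 3 without any single C3H replicate and 2 without Pde6b rd10 replicate 2 or 3, also through these genes, which their counts in Pde6b rd10 let in, so that these higher counts support nothing. With both limma scales 3 members were called in Pde6b rd10 against Pde6b rd1, and with limma on log2(FPKM + 1) 1 in Pde6b rd1 against Prph rd2. The counts between the models here include Best1, and in part Mlana. Without single replicates, the members called against C3H ranged from 1 to 2 for Pde6b rd1, from 1 to 3 for Pde6b rd10 and from 0 to 0 for Prph rd2, from 4 to 6 in Pde6b rd10 against Pde6b rd1, from 1 to 3 in Pde6b rd10 against Prph rd2 and from 2 to 3 in Pde6b rd1 against Prph rd2.

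Over all genes, limma on log2(FPKM + 1) called 1186 (reported 2749) in Pde6b rd1 against C3H, 2196 (4479) for Pde6b rd10, 182 (850) for Prph rd2, 3052 in Pde6b rd10 against Pde6b rd1 (5644), 1890 in Pde6b rd10 against Prph rd2 (3862) and 1154 in Pde6b rd1 against Prph rd2 (3308). In Prph rd2, this limma fit called 74 higher and 108 lower, against 498 and 352. The count in Prph rd2 was 384 with the adjusted p as threshold, 1300 with no filter and 745 to 1435 without single replicates, the highest without Prph rd2 replicate 2. These causes were not tested.

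The reversed directions were all of uncalled values near 0 or of few reads. Pmel in Pde6b rd1 had a log2 fold change of 0.16 with the C3H sample of the same day and ranged from -0.29 to 0.021 without single replicates. Pmel ranged from -0.057 to 0.25 in Pde6b rd10 against C3H and was -0.0098 without Pde6b rd10 replicate 1, and from -0.013 to 0.16 in Pde6b rd1 against Prph rd2. In Prph rd2, Ttr had 0.0027 and 0.0029 with limma and ranged from -0.079 to 0.020 without single replicates, and Tyr from -0.15 to 0.086. Best1 in Pde6b rd1 against Prph rd2 ranged from -0.88 to 1.43.

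Same-numbered samples deviated together in some pairs of groups and not in others. Between Pde6b rd1 and C3H their r was 0.0950, 0.0609 and 0.153, with a mean of 0.103 against -0.051 for other numbers. Between Pde6b rd10 and C3H the means were -0.032 and 0.016, and 0 samples correlated best with their own number. Whether same-numbered samples share more than a number was not tested. Every sample correlated best with its own number in 2 of the 6 comparisons. A replicate block gave 2774 called genes for Pde6b rd1 against C3H, where Ttr remained called with a log2 fold change of -0.91. The block changed no call of a member. Depth limits Mlana, Slc45a2 and Best1, which have at most 10 reads in most samples, and no rule for outlying samples could be applied to groups of 3.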
